A study of Mus musculus with 6 samples.

Results

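The class III receptor tyrosine kinases and their ligands were followed as 8 genes, taken by symbol from the deposited tables: the receptors Flt3, Kit, Csf1r, Pdgfra and Pdgfrb, and the ligands Flt3l, Kitl and Csf1. All 8 were found among the 31626 genes per table, each as 1 row, and none held a failed estimate. The 6 libraries came from common myeloid progenitors, immature blood cells, of C57Bl/6 mice homozygous for a floxed Dot1l allele. All of the cells carried the retrovirus MSCV-MN1-IRES-GFP, which expresses the leukaemia oncogene MN1, and grew in M3234 methylcellulose medium with serum, IL3, IL6 and SCF. In 3 control libraries the cells had received a control vector (Dot1l flox/flox), and in 3 others Cre recombinase (Dot1l -/-); cells were sorted at day 7. DOT1L is a histone methyltransferase that marks a lysine in the core of histone H3, and the series asked which RNAs differ once it is lost in MN1-driven leukaemia cells. Receiving Cre and losing Dot1l go together in these groups and cannot be told apart, and the labels do not say whether replicates were separate cultures or animals, so the p-values cover only the spread between these libraries, which may be technical.

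Class III receptors share an extracellular part of immunoglobulin-like domains and an intracellular kinase split by an insert. A dimeric ligand joins receptor molecules, which then phosphorylate each other and activate RAS and MAP kinases, PI3K and AKT, and STAT5. KIT, the receptor for SCF (the product of Kitl), supports stem cells, progenitors and mast cells; FLT3, the receptor for the Flt3l product, supports early progenitors and dendritic cell development and is often mutated in acute myeloid leukaemia; CSF1R, the receptor for the Csf1 product, drives the macrophage lineage; and the PDGF receptors act mainly in mesenchymal cells.

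Of the 8 genes, 3 fell after Dot1l deletion and had promoters among the RefSeq sequences used here, which cover 250 bases before to 50 after an annotated start (build GRCm38.p6, not the mm9 of the deposited values). They are shown because these members moved in the same direction; capitals mark matches to GGAA (the ETS core), CACGTG (E-box) or TGACAG (MEIS), on either strand. The Flt3 promoter lies at chr5:147400440-147400739 on the minus strand, that of Kit at chr5:75574737-75575036 on the plus strand (the first of 2 starts in the table), and that of Flt3l at chr7:45136383-45136682 on the minus strand.
Flt3: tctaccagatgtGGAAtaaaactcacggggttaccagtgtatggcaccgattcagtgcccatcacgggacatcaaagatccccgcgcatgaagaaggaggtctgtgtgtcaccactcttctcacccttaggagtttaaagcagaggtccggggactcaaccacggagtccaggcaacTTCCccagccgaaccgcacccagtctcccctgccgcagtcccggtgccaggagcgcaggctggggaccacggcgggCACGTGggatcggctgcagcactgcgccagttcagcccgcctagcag
Kit: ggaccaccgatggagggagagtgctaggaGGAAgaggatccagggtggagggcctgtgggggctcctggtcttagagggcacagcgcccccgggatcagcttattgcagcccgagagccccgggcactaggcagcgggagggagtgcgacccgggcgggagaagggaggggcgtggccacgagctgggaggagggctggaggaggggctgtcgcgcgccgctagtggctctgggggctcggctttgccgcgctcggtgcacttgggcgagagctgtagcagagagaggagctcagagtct
Flt3l: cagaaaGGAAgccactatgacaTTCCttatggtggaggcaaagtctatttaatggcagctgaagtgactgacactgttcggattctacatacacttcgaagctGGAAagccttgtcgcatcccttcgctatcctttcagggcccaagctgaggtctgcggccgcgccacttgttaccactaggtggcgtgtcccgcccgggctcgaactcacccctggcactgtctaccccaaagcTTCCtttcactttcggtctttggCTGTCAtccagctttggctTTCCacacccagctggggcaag

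The Flt3 window held 2 matches to GGAA and a CACGTG, which reads the same on both strands and so overlaps itself. The Kit window held 1 match to the ETS core, and the Flt3l window held 5 such matches and 1 match to the MEIS motif. Among 32851 promoter windows of this length, 96.0% held the ETS core, 7.15% the E-box and 19.2% the MEIS motif. None of the 3 windows held the GATA motif AGATAA, which 11.2% of all windows did. The HOX-PBX motif TGATNNAT, present in 8.85% of all windows, was also missing from these 3. The RUNX motif TGTGGT, in 16.8% of all windows, had no match here, nor did the CEBP motif TTNCNNAA, in 40.7%. The windows were 61.0% (Flt3), 69.0% (Kit) and 54.3% (Flt3l) G or C, against a median of 52.7%. These matches describe the letters and were not related to binding.

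Values were FPKM, fragments scaled by gene length and by the number mapped in the library, which allows levels of different genes to be compared. The 11924 genes with a mean of at least 1 FPKM were tested with limma on log2(FPKM + 1), and a gene was called where the p adjusted by Benjamini and Hochberg's method lay under 0.05; fold changes in log2 are differences on that scale, Dot1l-deleted minus control, and understate the change of low genes, whereas plain folds are ratios of mean FPKM. The call was made for 19.7% of tested genes, 7.43% higher and 12.2% lower. The third Dot1l-deleted library stood apart: its median log2 deviation from the 6-library mean was -0.366, against 0.05 to 0.103 in the other 5, so over all tested genes the log2 fold changes had a median of -0.16. Scaling by median of ratios brought that median to 0.0025 and called 23.1% of genes higher and 22.3% lower. Log2 fold changes after it are given as scaled values, beside those found when the third Dot1l-deleted library was left out. Dot1l itself had 20.2, 22.6 and 19.6 FPKM in control and 8.24, 8.17 and 5.8 FPKM in deleted libraries (log2 fold change -1.39, SE 0.157, limma adjusted p = 0.0001243).

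Among the receptors, Flt3 and Kit fell and Csf1r rose, while Pdgfrb did not pass and Pdgfra was too low to be tested. Flt3 (ENSMUSG00000042817) was at 62.1, 73.0 and 64.4 FPKM in the controls and at 5.0, 3.56 and 3.46 FPKM after deletion. Every deleted library was far below every control, and no library stood out within its group. The mean went from 66.5 ± 5.77 to 4.01 ± 0.863 FPKM (SD, n = 3 each), a 16.6-fold fall, with a log2 fold change of -3.76 (SE 0.159, limma adjusted p = 2.678e-07) and a scaled value of -3.60 (SE 0.119); leaving out the third Dot1l-deleted library gave -3.69. Of 11924 tested genes it had the 15th lowest log2 fold change. Its level, above 94.0% to 95.3% of the rows in the controls, was above 69.2% to 71.3% of them after deletion.

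Kit (ENSMUSG00000005672), which encodes the receptor for the SCF in the medium, was the highest of the 8 genes in both groups. It was at 116, 125 and 111 FPKM in the controls and at 66.8, 61.7 and 44.1 FPKM after deletion. The groups did not overlap, and the lowest value was that of the third Dot1l-deleted library; after median-of-ratios scaling the deleted libraries were at 63.7, 59.3 and 58.4, which brought that library close to the other deleted ones. The fall was 2.04-fold, from 117 ± 6.81 to 57.6 ± 11.9 FPKM (SD, n = 3 each), with a log2 fold change of -1.04 (SE 0.187, limma adjusted p = 0.002869) and a scaled value of -0.85 (SE 0.0559); leaving out that library gave -0.86.

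Csf1r (ENSMUSG00000024621), the macrophage receptor gene, went the other way. It was at 0.548, 0.676 and 0.298 FPKM in the controls and 3.44, 2.57 and 1.83 FPKM after deletion. All deleted libraries were above all controls, although the level remained low, above 67.0% to 68.9% of the rows. The log2 fold change was 1.24 (SE 0.221, limma adjusted p = 0.002556; scaled value 1.33, and 1.41 when the third Dot1l-deleted library was left out), and the ratio of means was 5.15. With pseudocounts of 0.1 and 5 in place of 1 the log2 fold change was 2.17 and 0.46. With a control mean of 0.507 ± 0.192 FPKM (SD, n = 3) Csf1r passed the filter only through its deleted libraries, so its presence among the tested genes already required a difference.

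The PDGF receptor genes were low. Pdgfrb (ENSMUSG00000024620) was at 1.87, 2.48 and 1.77 FPKM in the controls and at 1.87, 1.99 and 1.39 FPKM after deletion. The groups overlapped, and the log2 fold change was -0.14 (SE 0.182, limma adjusted p = 0.6124; scaled value -0.03). Pdgfra (ENSMUSG00000029231) was at 0.108, 0.138 and 0.241 FPKM in the controls and at 0.0799, 0.0277 and 0.0587 FPKM after deletion. The deleted libraries all lay below the controls, as did those of 34.1% of the tested genes, with 10.7% lying wholly above. With the filter lowered to a mean of 0.1 FPKM, where 17.7% of 15733 genes were called, Pdgfra had a log2 fold change of -0.14 (SE 0.0821, limma adjusted p = 0.3005). The number of fragments behind such low values is not known from FPKM.

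**Figure D1:**
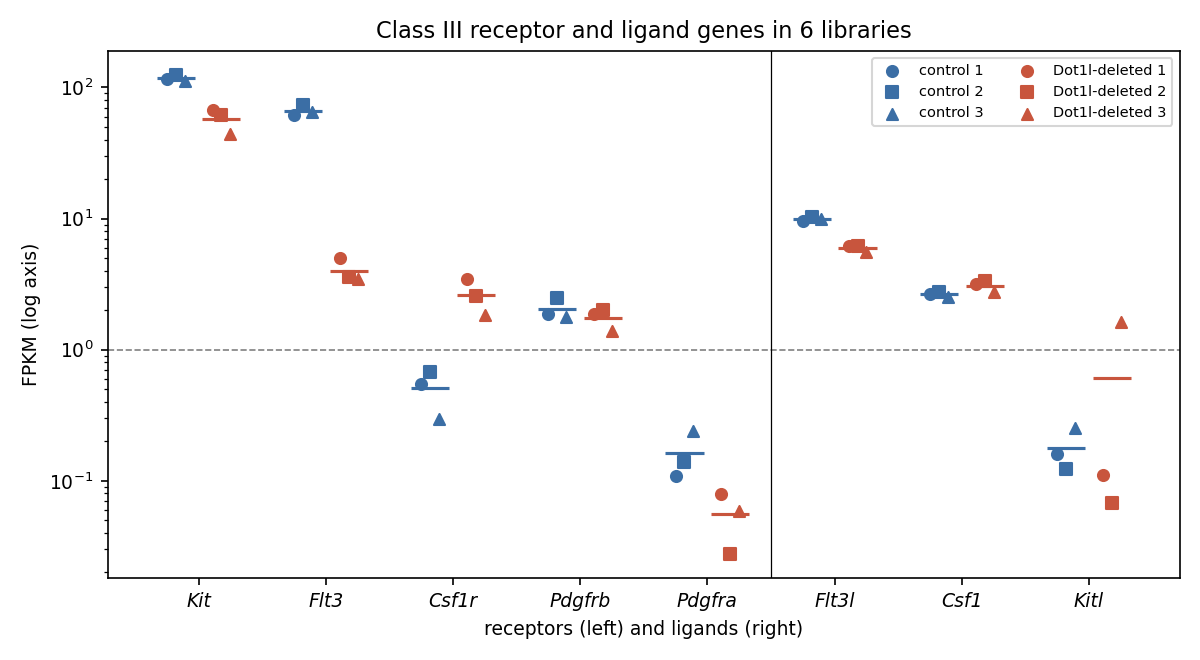
FPKM (log axis) of the 5 receptor genes, left, and the 3 ligand genes, right, in each of the 3 control (blue) and 3 Dot1l-deleted (red) libraries; symbols mark the replicate number, short lines the group means, and the dashed line the filter at 1 FPKM. Flt3, Kit and Flt3l are lower in every deleted library, Csf1r is higher in every one, and Kitl is high only in the third, at 1.63.

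The make-up of class III receptor RNA differed between the groups. In the controls Kit held 64.3%, 62.1% and 62.5% of the summed FPKM of the 5 receptors, and Flt3 held 34.3%, 36.3% and 36.2%. After deletion Kit held 86.5%, 88.3% and 86.8%, Flt3 6.48%, 5.1% and 6.81%, and Csf1r 4.46%, 3.67% and 3.59%, against 0.167% to 0.336% in the controls. The sum itself was 178 to 201 FPKM in the controls and 50.9 to 77.2 after deletion. These shares come from values within 1 library and do not depend on how libraries are scaled to each other.

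Ratios within a library compared the receptors with each other. The log2 ratio of Flt3 to Kit (each as FPKM + 1) stood at -0.89, -0.77 and -0.78 in control libraries against -3.5, -3.78 and -3.34 in deleted ones, a difference of -2.73, so Flt3 fell further than Kit in all 3 deleted libraries. The ratio of Csf1r to Kit moved by 2.28 and that of Csf1r to Flt3 by 5.01. These sizes depend on the pseudocount: with 5 in place of 1 the 3 differences were -2.0, 1.45 and 3.45, and with 0.1 they were -2.99, 3.22 and 6.20. In plain FPKM there were 0.534 to 0.585 Flt3 for each Kit in the controls and 0.0577 to 0.0784 after deletion, and Csf1r went from 0.00463 to 0.00925 of Flt3 to 0.528 to 0.721 of it. For none of the 3 ratios did the groups overlap, and each gave an exact two-sided permutation p of 0.1, the smallest that 3 against 3 libraries allow, with p = 0.1 after adjustment over the 3 ratios.

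**Figure D2:**
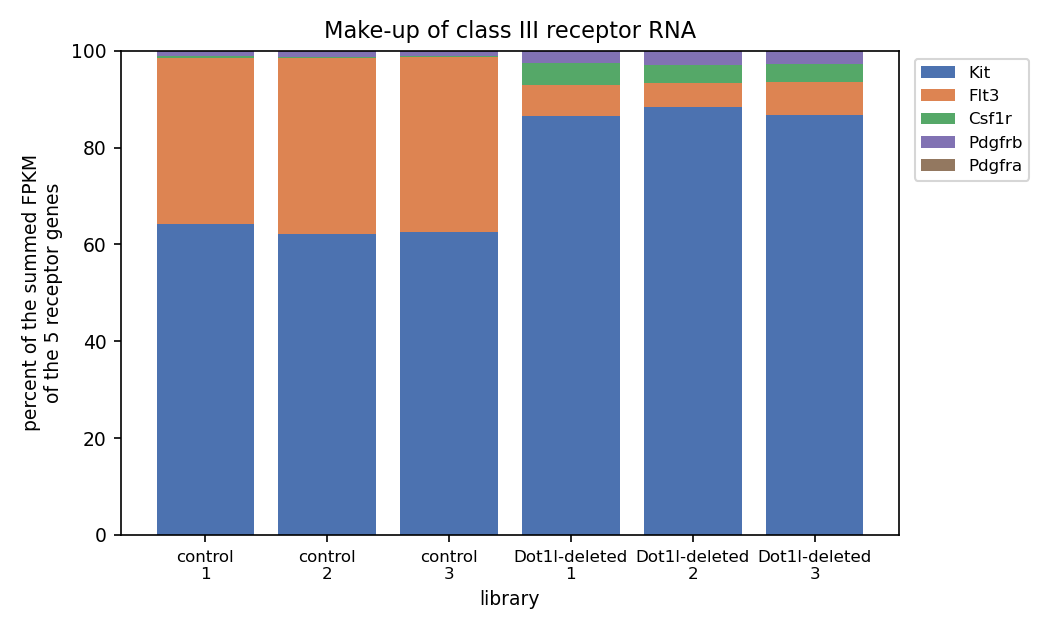
Percent of the summed FPKM of the 5 class III receptor genes held by each gene in the 6 libraries, as stacked bars from 0 to 100. Flt3 holds 34.3% to 36.3% in the controls and 5.1% to 6.81% after Dot1l deletion, where Kit holds 86.5% to 88.3%.

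Of the ligands, Flt3l fell with its receptor but by far less, and Csf1 did not pass. Flt3l (ENSMUSG00000074129) was at 9.63, 10.3 and 9.87 FPKM in the controls and at 6.15, 6.17 and 5.58 FPKM after deletion. The groups were tight and apart, at 9.93 ± 0.329 and 5.97 ± 0.336 FPKM (SD, n = 3 each), a 1.66-fold fall (log2 fold change -0.65, SE 0.125, limma adjusted p = 0.004206; scaled value -0.49, SE 0.0888, and -0.61 when the third Dot1l-deleted library was left out). Csf1 (ENSMUSG00000014599) was at 2.64, 2.75 and 2.54 FPKM in the controls and at 3.14, 3.36 and 2.75 FPKM after deletion. The lowest deleted value, again in the third library, equalled the highest control value to 3 digits. Its log2 fold change was 0.16 (SE 0.149, limma adjusted p = 0.4819); with scaling it was 0.30 (limma adjusted p = 0.02604, called higher) and without the third Dot1l-deleted library 0.22 (limma adjusted p = 0.08923).

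Kitl (ENSMUSG00000019966) was low in 5 libraries and high in 1. It was at 0.161, 0.124 and 0.252 FPKM in the controls and at 0.111, 0.0672 and 1.63 FPKM in the deleted libraries. The high value was that of the third Dot1l-deleted library, the one that stood apart, and the other deleted libraries were below every control. The difference in mean log2(FPKM + 1) was 0.31 with that library and -0.11 without it, so its sign rests on 1 library; the gene was below the filter and not tested. On the deposited scale no other member was highest in that library among the deleted ones; after median-of-ratios scaling Flt3l (7.38 against 5.86 and 5.93), Csf1 (3.64 against 2.99 and 3.23) and Pdgfra (0.0777 against 0.0762 and 0.0267) were highest there too, and Kitl was at 2.16 against 0.105 and 0.0646. Whether the features that set that library apart bear on its Kitl value was not tested.

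**Figure D3:**
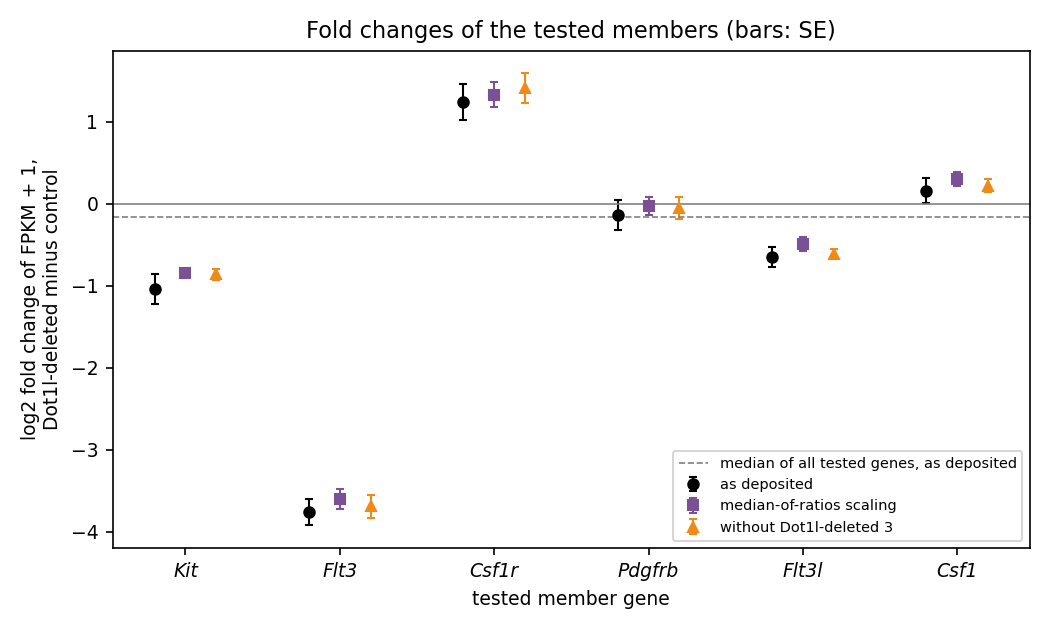
Log2 fold change of FPKM + 1 (Dot1l-deleted minus control, with SE bars) for the 6 tested members, with the values as deposited, after median-of-ratios scaling, and without the third Dot1l-deleted library; the dashed line marks the median over tested genes, -0.16. Flt3 lies between -3.76 and -3.60 in the 3 settings, Kit between -1.04 and -0.85, and Csf1r between 1.24 and 1.41.

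In the controls the levels ran in the order Kit, Flt3, Flt3l, Csf1, Pdgfrb, Csf1r, Kitl and Pdgfra, and the ranges of all neighbours in this order were apart except those of Kitl and Pdgfra. After deletion the order was Kit, Flt3l, Flt3, Csf1, Csf1r, Pdgfrb, Kitl and Pdgfra. There the ranges of Kit, Flt3l and Flt3 were apart from each other and Flt3 from Csf1, while each later neighbour overlapped the next. Flt3 thus changed places with the gene of its own ligand: it was above Flt3l in all 3 controls and below it in all 3 deleted libraries.

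The other ligands of these receptors, Il34 for CSF1R and the 4 PDGF genes, were all below 1 FPKM on average. Pdgfc was at 0.935, 1.07 and 1.31 FPKM in the controls and at 0.0869, 0.198 and 0.0781 FPKM after deletion. Pdgfb was at 0.748, 0.613 and 0.528 FPKM and then 0.291, 0.257 and 0.19. Both were lower in every deleted library, as were 34.1% of the genes past the filter of 1 FPKM. With the filter at 0.1 FPKM, where 17.7% of 15733 genes were called, both were called. Their log2 fold changes there were -0.91 for Pdgfc (SE 0.107, limma adjusted p = 0.0009209) and -0.39 for Pdgfb (SE 0.0948, limma adjusted p = 0.02763). Pdgfa was not called with that filter (0.09, SE 0.0856, limma adjusted p = 0.4903). Pdgfa was at 0.139 ± 0.0166 and 0.217 ± 0.0845 FPKM (SD, n = 3 each), Il34 at no more than 0.0555 FPKM, and Pdgfd was listed at 0 in all 6 libraries.

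Against the rest of the receptor tyrosine kinase family, Kit and Flt3 dominated the controls. Of 57 such genes matched, 18 or 19 were at 1 FPKM or more in each control, Kit and Flt3 ranked 1 and 2 in all 3, and the class III genes held 71.0% to 72.4% of the family's summed FPKM. After deletion Kit kept rank 1, Flt3 ranked 8 to 10, Csf1r moved from 20 to 22 up to 12, and the class III share was 42.8% to 43.5%. Of 14 tested genes outside class III, 3 rose and 2 fell, with a median log2 fold change of 0.21 against -0.16 over all tested genes. With scaling 7 rose and 2 fell, and without the third Dot1l-deleted library 6 rose and 2 fell. The shares over all tested genes were 7.43% higher and 12.2% lower as deposited, and 23.1% and 22.3% with scaling. Epha3, an ephrin receptor gene, fell from 12.5 to 0.79 FPKM (log2 fold change -2.91, SE 0.141, limma adjusted p = 4.768e-07). It passed the filter only through its controls, as its deleted libraries were at 0.704 to 0.843 FPKM. Met, the receptor gene for hepatocyte growth factor, rose from 5.3 to 12.8 FPKM, Igf1r, the receptor gene for insulin-like growth factor I, from 7.41 to 16.0, and Aatk from 3.78 to 6.29. The other gene that fell was Epha7, from 6.21 to 3.94 FPKM.

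**Figure D4:**
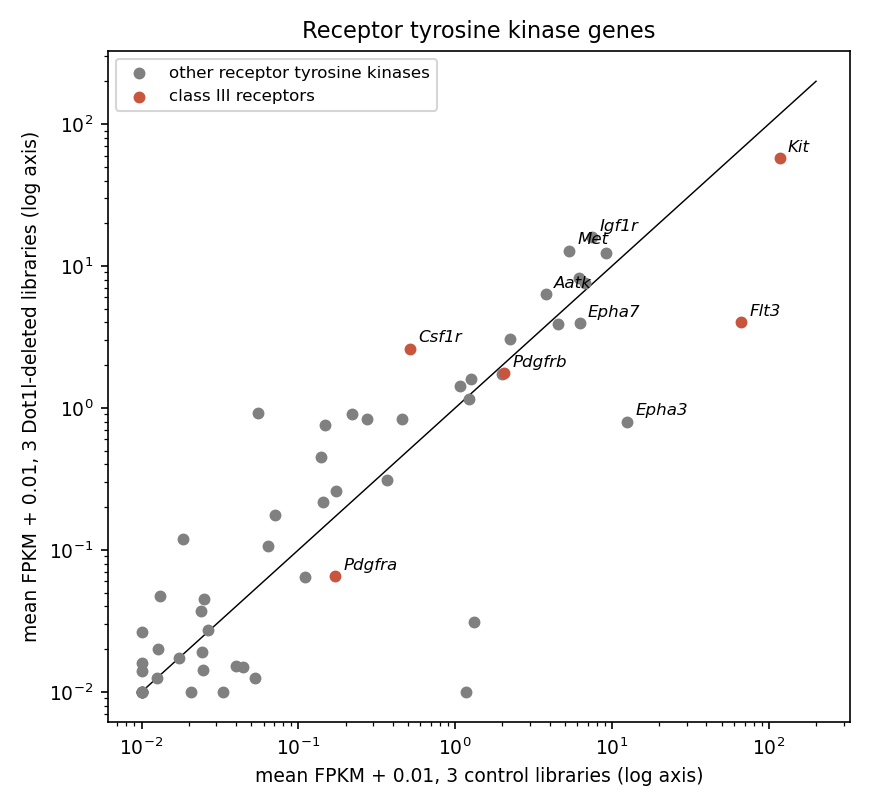
Mean FPKM + 0.01 of receptor tyrosine kinase genes in the 3 control (x axis) and 3 Dot1l-deleted libraries (y axis), both on log axes; red marks class III, and the line marks equal values. Flt3 (66.5 and 4.01) and Epha3 (12.5 and 0.79) lie far below the line, and Csf1r (0.507 and 2.61) above it.

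Signalling genes downstream of the receptors moved in both directions. The counts in these lists stand beside 7.43% higher and 12.2% lower over all tested genes as deposited. With scaling those shares were 23.1% and 22.3%. Of 24 tested adaptor and SRC-family kinase genes, 3 rose and 7 fell, with a median log2 fold change of -0.14. The SRC-family kinase gene Fyn fell from 24.0 to 4.94 FPKM (log2 fold change -2.08, limma adjusted p = 4.995e-06). The adaptor gene Grb10 fell from 13.3 to 6.57 FPKM, and Grap rose from 2.46 to 6.96. With scaling 8 rose and 8 fell, and without the third Dot1l-deleted library 5 rose and 8 fell.

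In the RAS and MAP kinase cascade, 3 of 20 tested genes rose and 4 fell, with a median log2 fold change of -0.10; the counts were 8 and 5 with scaling, and 7 and 5 when the third Dot1l-deleted library was left out. Those that rose were the RAS exchange factor genes Rasgrp4 (2.76 to 9.99 FPKM) and Rasgrp2 (52.5 to 121 FPKM) and the ribosomal S6 kinase gene Rps6ka1 (50.2 to 110 FPKM). Sos1, the exchange factor that GRB2 brings to receptors, fell from 11.6 to 7.09 FPKM (log2 fold change -0.64, limma adjusted p = 0.007412). Of 16 tested PI3K, AKT and STAT5 genes, none rose and 4 fell, with a median of -0.36; with scaling 2 rose and 8 fell, and without that library 1 rose and 6 fell. Stat5a and Stat5b, the transcription factor genes that act below FLT3 and KIT, fell from 26.5 to 14.4 FPKM (log2 fold change -0.85, limma adjusted p = 0.002153) and from 22.6 to 12.2 FPKM (-0.85, adjusted p = 0.00564). Pik3r1, the regulatory p85 subunit gene, fell from 31.4 to 18.8 FPKM.

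Of 31 tested negative regulators, 3 rose and 8 fell (median -0.12; the counts were 10 and 10 with scaling, and 9 and 10 when the third Dot1l-deleted library was left out). Rasa2, encoding a RAS GTPase-activating protein, rose from 2.59 to 10.0 FPKM (log2 fold change 1.61, limma adjusted p = 3.927e-05). Socs2, a STAT5 target and feedback gene, fell from 25.1 to 9.9 FPKM, and the Sprouty genes Spry1 and Spry2, which restrain receptor signalling to RAS, from 4.12 to 1.26 and from 28.7 to 15.2. Cbl, encoding the ubiquitin ligase that sends KIT and FLT3 for degradation, was at 15.0 ± 2.71 and 17.4 ± 4.26 FPKM (SD, n = 3 each; limma adjusted p = 0.5078). Of 3 tested genes in the sheddase list, Adam17 and Adam10 encode proteases that cut such receptors and ligands from the cell surface. Adam17 fell from 62.1 to 34.6 FPKM (log2 fold change -0.84, limma adjusted p = 0.005891) and Adam10 from 74.6 to 45.5 (-0.71, adjusted p = 0.01221). Rhbdf2, at 5.52 and 7.11 FPKM, did not pass. With scaling 1 of the 3 rose and 2 fell, and the same counts were found without the third Dot1l-deleted library. With the receptor genes outside class III and the transcription factors described next, 15 of 131 tested genes rose and 37 fell. Among all tested genes 7.43% rose and 12.2% fell.

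**Figure D5:**
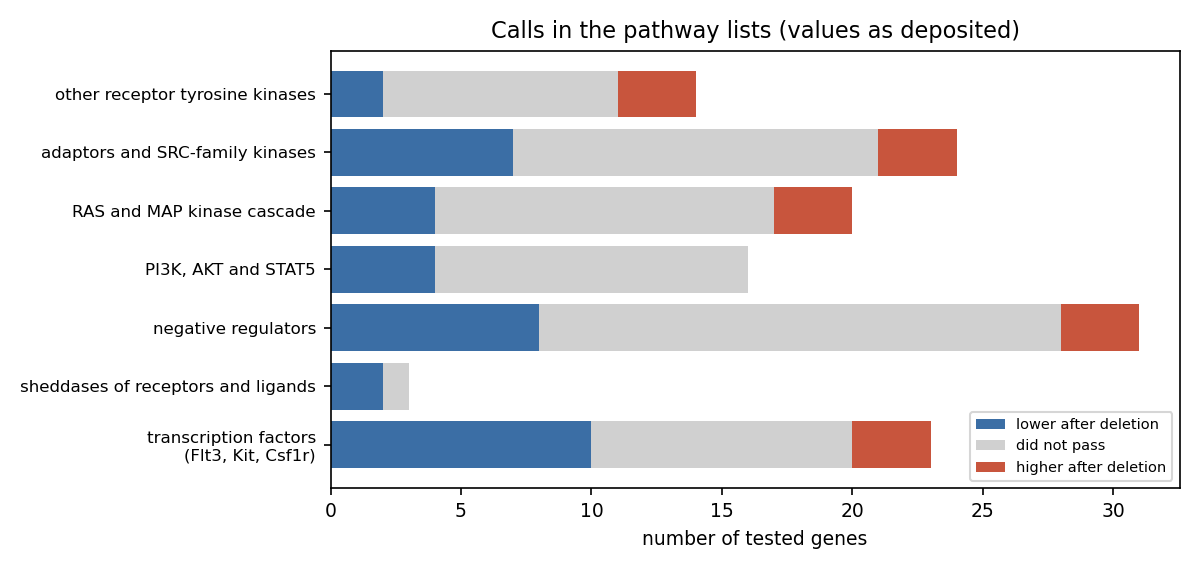
Number of tested genes (x axis) lower after Dot1l deletion (blue), not passing (grey) and higher (red) in each pathway list, for values as deposited. The transcription factor list has 10 lower and 3 higher of 23, and the PI3K, AKT and STAT5 list 4 lower and none higher of 16. Over all tested genes 12.2% were lower and 7.43% higher.

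Of 23 tested transcription factor genes known to act on Flt3, Kit or Csf1r, 3 rose and 10 fell, with a median log2 fold change of -0.49 (scaled -0.31). The counts were 7 and 13 with scaling, and 5 and 13 when the third Dot1l-deleted library was left out. All tested genes had 7.43% higher and 12.2% lower as deposited, and 23.1% and 22.3% with scaling. Hoxa9 and Meis1 fell from 38.4 to 1.5 and from 55.1 to 8.11 FPKM, Egr1 from 53.8 to 4.19 and Erg from 40.6 to 14.0. Named after their values were seen, Gata2 and Tal1 fell from 129 to 60.7 FPKM (log2 fold change -1.08, limma adjusted p = 0.001099) and from 44.6 to 23.7 FPKM (-0.89, adjusted p = 0.002043). Sfpi1 (now Spi1), the PU.1 gene, rose from 45.9 to 105 FPKM (1.16, adjusted p = 0.001222), and Cebpb from 7.4 to 21.6 (1.42, adjusted p = 9.477e-05). The third gene that rose was Lyl1, and 10 of the 23 did not pass. Sfpi1 and Cebpb, like Gata2 and Tal1, were picked from this list after their values were seen. Whether any of these factors bears on the receptor genes here was not tested.

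Neighbouring genes gave a view of the loci, with the 3 nearest protein-coding genes on each side taken from the RefSeq order of assembly GRCm38.p6. Beside Flt3, Pan3 was at 28.7, 30.9 and 33.3 FPKM in the controls and at 20.3, 22.6 and 17.7 FPKM in the deleted libraries, and it fell (log2 fold change -0.60, SE 0.149, limma adjusted p = 0.01726). Flt1, a VEGF receptor gene, was at 9.18 ± 0.274 and 12.3 ± 2.64 FPKM (SD, n = 3 each; log2 fold change 0.36, limma adjusted p = 0.1606); it was called higher with scaling (0.53, adjusted p = 0.0004517) and when the third Dot1l-deleted library was left out (0.53, adjusted p = 0.001865). Pomp had a log2 fold change of 0.08 (scaled 0.26, adjusted p = 0.01783). Urad, Cdx2 and Pdx1, on the other side, were at 0.0211 FPKM or less in every library.

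Kit lies between Pdgfra and Kdr. Kdr, a VEGF receptor gene, was at 0.22, 0.245 and 0.165 FPKM in the controls and at 1.03, 1.03 and 0.613 after deletion, opposite to Kit, and was called higher with the filter at 0.1 FPKM (log2 fold change 0.64, SE 0.118, limma adjusted p = 0.008397). Chic2, Srd5a3 and Tmem165, further out, had log2 fold changes of 0.00, 0.26 and 0.31 and did not pass; with scaling all 3 were called higher, at 0.18, 0.44 and 0.49, and Srd5a3 and Tmem165 also when the third Dot1l-deleted library was left out, at 0.39 and 0.47. Lnx1, beyond Chic2, had -0.45 (limma adjusted p = 0.08549) and was called lower when that library was left out (-0.44, adjusted p = 0.04772). Pdgfrb and Csf1r lie next to each other, and of this pair only Csf1r was called. On the far side of Csf1r, Hmgxb3 had a log2 fold change of -0.11 (limma adjusted p = 0.6442) and Slc26a2 0.16 (adjusted p = 0.5315; scaled 0.30, adjusted p = 0.01299). Gsx2, beside Pdgfra, and Cdx1 and Slc6a7, beside Pdgfrb, were listed at 0 in every library, and the neighbours Gm52351 and LOC108168367 were not matched to a row.

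Genes with the most similar pattern were sought by the root mean square difference of mean-centred log2(FPKM + 1) over the 6 libraries. For Flt3 these were Zfp503 (difference 0.066), Cd27 (0.109), Hoxa9 (0.152), Hoxa11 (0.159) and Hlf (0.166), which had log2 fold changes of -3.68 to -4.01. Zfp503 went from 55.8 to 3.46 FPKM. For Kit they were Rftn1 (0.033), Abhd8 (0.035), F2rl3 (0.039), Ndst2 (0.044) and Impdh1 (0.048). For Csf1r they were Rhob (0.056), Grap (0.071), Tmem86a (0.072), Rbms1 (0.083) and Abr (0.09), and for Flt3l Cd59a (0.028), Lrrc1 (0.033), Slco3a1 (0.038), Cnksr3 (0.039) and Per1 (0.039). For the tested members that were not called they were Map3k2, Tbc1d12, Osgin1, Glcci1 and Zfp319 (Pdgfrb) and Nlgn2, Rassf6, Pgam2, Slc25a37 and Mier3 (Csf1). The likeness is dominated by the difference between the groups.

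Markers of cell types that use these receptors were also measured. In bulk RNA, fewer cells of a type and less RNA per cell cannot be told apart. Across all tested genes 7.43% were called higher and 12.2% lower as deposited, and 23.1% and 22.3% with scaling. Beside Flt3 and Kit, 9 of 10 tested stem and multipotent progenitor markers fell and 1 rose, and the summed FPKM of the 13 matched was 1340 to 1360 in the controls and 233 to 325 after deletion. Cd34, which with Kit defines the labelled progenitors, was at 750 ± 14.0 and 123 ± 21.1 FPKM (SD, n = 3 each). It made up most of the progenitor sum in the controls. Mast cells depend on KIT: of 8 tested mast cell markers 2 rose and 3 fell, and the 11 matched summed to 2440 to 2690 FPKM in the controls and 1540 to 2230 after deletion. Cpa3 alone was at 1950 ± 136 and 1500 ± 315 FPKM (SD, n = 3 each), most of that sum in both groups. The sum therefore mainly follows Cpa3 and says little of the other mast cell markers. Fcer1a, Tpsab1 and Mrgprb2 were on average below 1 FPKM. Beside Csf1r, 8 of 10 tested monocyte and macrophage markers rose and 1 fell, and the 14 matched summed to 178 to 202 FPKM in the controls and 925 to 1220 after deletion; Ms4a7 and Cx3cr1 were on average below 1 FPKM in both groups. Some of these, such as Itgam and Lyz2, are also made by neutrophils. Of 12 neutrophil markers 11 rose and none fell, and their sum went from 2440 to 2860 up to 24700 to 30700 FPKM. Lymphoid and dendritic markers, of cells that use FLT3, had 2 higher and 2 lower of 5 tested, with Siglech listed at 0, and summed to 83.8 to 92.2 FPKM in the controls and 93.4 to 136 after deletion. Erythroid markers had 3 higher and 3 lower of 8 tested and summed to 128 to 135 and 125 to 172 FPKM. For the PDGF receptors and Kitl, which stromal cells express, 10 of 13 stromal and endothelial markers were below the filter and Dcn and Lum were listed at 0, while Fbn1 and Acta2 rose and Pecam1 fell; the list summed to 78.8 to 86.6 and 65.5 to 91.4 FPKM. With scaling the counts higher and lower were 5 and 3 of 9 for erythroid, 3 and 4 of 8 for mast cell, 3 and 2 of 5 for lymphoid and dendritic, 9 and 1 of 10 for monocyte and macrophage, 12 and 0 of 12 for neutrophil, 3 and 1 of 4 for stromal and 1 and 9 of 10 for progenitor markers. The part of these cell types in the values of the 8 genes was not tested.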

How the data were processed

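RNA was measured in 6 libraries, 3 control and 3 Dot1l-deleted, grouped by their titles. Per the labels' protocols, RNA went through a stranded mRNA kit. The authors deposited a table for each library with 1 FPKM value per gene. Cuffdiff, SAMtools, GSNAP, CASAVA 1.8.2 and build mm9 are listed in the submitters' processing notes; their roles, and whether counting used strand, are not given in the sources used here. Where strand is ignored, antisense reads add to a gene.

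The 378 genes with a value of 999999999 in any library, read as a failed estimate, were left out. Of 11 mitochondrial rows 10 were at 0 in all libraries, so a gene at 0 is called listed at 0. With the first control library as 1.0, steps in small RNA values put the other depths at 0.737 to 0.895, from 25 to 38 of 164 to 169 rows at the commonest ratio, so approximate; absolute depth is unknown. Samples of another genotype named in the series' design text were not analysed here.

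Genes with a mean of at least 1 FPKM were fitted with limma 3.58.1 in R 4.3.3 (eBayes with trend) on log2(FPKM + 1), two-sided, scaled as deposited. Ratios between members used exact permutation tests. The script was tested on simulated data with known changes. The simulated noise was drawn separately for each gene and library, so that test does not cover a shift shared by a whole library. The members and lists were chosen with earlier results of these data known. The text names Dot1l, the members, up to 4 called genes per pathway list with the smallest adjusted p, 3 neighbours on each side of a receptor, and the 5 genes most like each tested member; marker genes and any others were named after their values were seen. Older symbols were matched by identifier; Ephb2, Shc1, Pik3cd and Lmo2 of the lists were not analysed here, and some list genes are counted but not reported by name. Promoters of 6 members were found in the RefSeq table used, outside a chromosome that was left out of the search. Alternatives covered pseudocount, filter, scaling, variance model, weights, replicate block and each library left out; median-of-ratios scaling combined with the block, and without the third Dot1l-deleted library, was added after seeing the data.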

Additional observations from a re-analysis of the deposited data

How the results depend on the processing

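The calls of Flt3, Kit, Csf1r and Flt3l kept their direction and stayed past the threshold in all 19 alternatives, with log2 fold changes of -4.04 to -2.99, -1.19 to -0.83, 0.46 to 2.17 and -0.78 to -0.45. Both ends for Flt3 and Csf1r come from the pseudocounts of 0.1 and 5; -1.19 for Kit and -0.78 for Flt3l come from scaling to the summed FPKM. Pdgfrb never passed. Csf1 became called higher with median-of-ratios scaling (0.30) and with array weights (0.25). The untested difference of Pdgfra was -0.14 and moved to -0.74 and -0.03 with pseudocounts of 0.1 and 5, and that of Kitl ran from -0.11 to 0.54 with 1 library left out. Leaving out 1 library gave -3.90 to -3.69 for Flt3, -1.15 to -0.86 for Kit, 1.08 to 1.41 for Csf1r, -0.67 to -0.61 for Flt3l, -0.21 to -0.04 for Pdgfrb, 0.11 to 0.22 for Csf1 and -0.17 to -0.09 for Pdgfra. The differences of the Flt3 to Kit, Csf1r to Kit and Csf1r to Flt3 ratios ran from -2.83 to -2.60, 2.22 to 2.34 and 4.92 to 5.10 with 1 library left out, were -2.99, 3.22 and 6.20 with a pseudocount of 0.1, and were -2.0, 1.45 and 3.45 with a pseudocount of 5.

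Of all tested genes, 2345 were called, 886 higher and 1459 lower. With median-of-ratios scaling 5414 were called (2754 and 2660), with quantile normalization 5608 (2412 and 3196) and with array weights 5716 (2531 and 3185); with no filter 1342 were higher. Scaling with the block gave 4470, 2314 of them higher, and scaling while leaving out the third Dot1l-deleted library 4556 (2319 and 2237). With 1 library left out, 1819 to 4558 were called, 700 to 2041 higher and 1012 to 2517 lower, the most where that library was the third Dot1l-deleted one. Of 131 pathway genes, 52 were called, 15 higher and 37 lower. With scaling 91 were called (43 higher), with quantile normalization 89 (40), with array weights 93 (39), with scaling and the block 82 (39), and with scaling but leaving out the third Dot1l-deleted library 83 (38); with no filter 24 were higher and with a filter of 0.1 FPKM 23. With 1 library left out, 38 to 80 were called, 13 to 34 higher and 24 to 46 lower. Apart from fewer or more genes and libraries, the cause of these shifts was not tested.

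Replicate numbers did not pair the libraries: deviations of same-numbered libraries from their group means correlated at -0.03, -0.038 and 0.013, and no library correlated best with its own number. With the replicate block 2953 genes were called, and the calls of Flt3 (-3.76), Kit (-1.04), Csf1r (1.24) and Flt3l (-0.65) held.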

Other observations

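Other receptor tyrosine kinase genes below the filter had groups that did not overlap; they are given as values, chosen after they were seen. The neurotrophin receptor genes Ntrk2 and Ntrk3 were at 1.16 ± 0.0988 and 1.31 ± 0.191 FPKM in the controls (SD, n = 3 each); after deletion Ntrk2 was listed at 0 in all 3 libraries and Ntrk3 was at 0.0212 ± 0.0023. Alk was at 0.045 ± 0.0332 FPKM in the controls and 0.919 ± 0.147 after deletion, Fgfr1 at 0.138 ± 0.0458 and 0.75 ± 0.2, and Axl at 0.266 ± 0.0282 and 0.827 ± 0.145 (SD, n = 3 each). All 5 were below the filter of 1 FPKM on average over the 6 libraries, so none entered the test. Among the tested genes, the deleted libraries lay wholly below the controls for 34.1% and wholly above for 10.7%.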
